A study of Rattus norvegicus with 27 samples.

Results

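Total RNA of hippocampal CA1 was compared between male Long Evans rats that had brain ischemia followed by reperfusion and sham-operated rats. The members are the 7 arrays, of 27 in the series, that the labels name as CA1 total RNA: 3 non-ischemic controls (NIC) and 4 after ischemia (8R), all described across the genes of the array. The 8R rats had both carotid arteries occluded together with bleeding to a mean arterial pressure of 45 mm Hg at normal body temperature, which stopped blood flow to the whole brain for 10 min, and were then reperfused for 8 h. The NIC rats had the surgery without ischemia. The age of the rats is not given in the sources used here. Each array is a pool of CA1 dissected from 5 rats, so the replicate is a pool. Mitochondria were spun out of the homogenate, and 20% of this post-mitochondrial supernatant gave the total RNA. The remainder was spun through a 20% sucrose pad that polysomes cross, and the RNA of this polysome pellet and the CA3 total RNA of the same design serve below as the nearest comparisons.

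CA1 is the hippocampal field whose pyramidal neurons die, after a delay of days, when the forebrain has been without blood flow, while the neighbouring CA3 neurons largely survive. Ischemia and the return of oxygen unfold proteins, deplete calcium from the endoplasmic reticulum and activate kinases that phosphorylate the initiation factor eIF2. Cells answer through the heat shock response, in which Hsf1 induces chaperones, through the unfolded protein response, and through the integrated stress response, in which Atf4 and related factors induce amino acid and redox genes. Total RNA shows which transcripts are present in the cytoplasm, whether or not ribosomes translate them.

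Of 12716 genes tested, 2561 were higher in 8R than in NIC (20.1%) and 782 were lower (6.15%), at an adjusted p under 0.05 in limma. On a scale that forces all arrays to the same distribution of intensities (quantile normalization) the split was 2039 higher and 1837 lower, and 2011 of the 2561 and all 782 of the 782 were called there too. The median change over all genes was 0.04 as deposited and -0.03 under quantile normalization. Changes throughout are differences in log2(intensity + 16), given with the standard error of the fit, and the added 16 makes them smaller than the true change for dim genes. A change of 1 is a 2-fold difference, which 125 of the genes called higher and 7 of those called lower reached. All 8R arrays lay above all NIC arrays for 3120 genes (24.5%) and below them for 1282 (10.1%), together 4402 (34.6%).

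**Figure D1:**
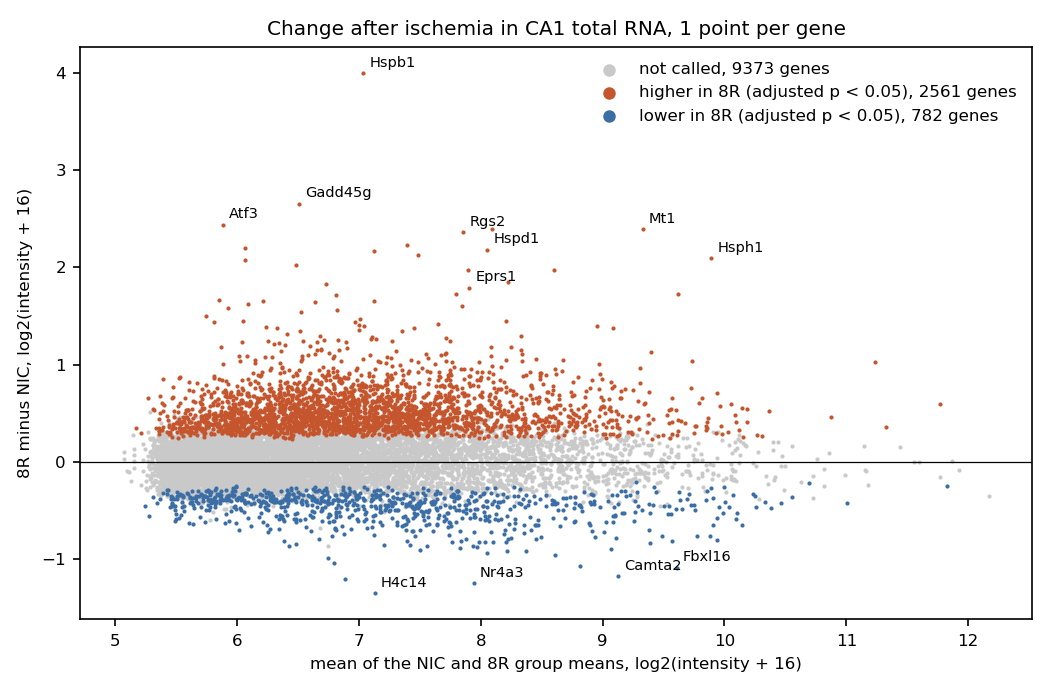
Change from NIC to 8R (vertical axis, log2 units) against the mean level (horizontal axis, log2 of intensity + 16), with 1 point for each of the 12716 genes tested. The 2561 genes called higher reach a change of 4.00 (Hspb1), and the 782 called lower go down to -1.35 (H4c14).

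The arrays matched their labelled region. Wfs1, a pyramidal neuron gene that marks CA1, had intensities of 530.4, 679 and 591 in NIC CA1 and 188, 176 and 180.3 in NIC CA3. The summed intensity of the CA1 marker list was 1651.8 to 1797.5 in NIC CA1 and 761 to 880 in NIC CA3. Within the NIC group, arrays correlated at 0.9859 to 0.9907 over genes, and within the 8R group at 0.9695 to 0.9857. The median SD of a gene was 0.105 log2 in NIC and 0.151 log2 in 8R. A few arrays stood apart. NIC replicate 2 was low for many housekeeping genes, and 8R replicate 4 was low for ribosomal and respiratory genes. 8R replicate 3 was high for synaptic genes and CA1 pyramidal markers. Without NIC replicate 2 the counts were 1704 higher and 517 lower. Without the 8R arrays of pool 4, in this and the other groups, 1391 genes were lower. In lists with few calls, single calls were often lost when 1 array was left out. The values are of bulk tissue, in which fewer cells of a type and less RNA per cell cannot be told apart.

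The sequences shown next are stretches of RefSeq promoters (assembly GRCr8) of genes that rose, chosen to show binding elements of the heat shock, unfolded protein and integrated stress responses. The motif is in capitals, bases are counted back from the annotated gene start, and each stretch reads 5′ to 3′ on the gene's own strand. The Hspe1 and Hsph1 stretches hold repeated heat shock units, the binding element of Hsf1. Hspe1 (chr9:64084207-64084326, plus strand) encodes the 10 kDa mitochondrial chaperonin, and Hsph1 (chr12:10427248-10427367, plus strand) encodes the large cytosolic chaperone Hsp110:
Hspe1: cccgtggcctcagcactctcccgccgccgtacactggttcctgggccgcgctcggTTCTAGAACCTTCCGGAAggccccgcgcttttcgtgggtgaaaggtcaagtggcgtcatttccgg
Hsph1: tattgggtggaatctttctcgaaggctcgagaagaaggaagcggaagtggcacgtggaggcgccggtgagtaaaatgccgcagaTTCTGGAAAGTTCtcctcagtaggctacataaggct

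The capitals run from base -65 to -48 in Hspe1, where 2 matches overlap, and from -36 to -24 in Hsph1. The Hspe1 bases in capitals are also upstream of Hspd1 (Hsp60), which is transcribed from the opposite strand and has them at -242 to -225. The next stretch, of Hspa5 (BiP, chr3:38452896-38453015, plus strand), holds the endoplasmic reticulum (ER) stress response element at -43 to -25, which Atf6 binds with NF-Y:
Hspa5: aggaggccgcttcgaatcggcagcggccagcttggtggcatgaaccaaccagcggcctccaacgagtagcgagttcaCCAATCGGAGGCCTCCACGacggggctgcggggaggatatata

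The last 3 are from genes of the integrated stress response. Tars1 (chr2:62114803-62114922, minus strand) encodes threonyl-tRNA synthetase, Chac1 (chr3:126795931-126796050, plus strand) an enzyme that degrades glutathione, and Ppp1r15a (chr1:105139597-105139716, minus strand) the phosphatase subunit Gadd34 that reverses eIF2 phosphorylation. The capitals mark a C/EBP-ATF response element, which Atf4 binds, at -27 to -20 in Tars1 and -167 to -160 in Chac1, and a cyclic AMP response element at -66 to -59 in Ppp1r15a:
Tars1: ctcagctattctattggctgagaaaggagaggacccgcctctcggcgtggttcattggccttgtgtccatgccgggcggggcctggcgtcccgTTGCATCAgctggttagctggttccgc
Chac1: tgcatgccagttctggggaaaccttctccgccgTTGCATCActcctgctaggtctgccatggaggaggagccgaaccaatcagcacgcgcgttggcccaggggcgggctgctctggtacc
Ppp1r15a: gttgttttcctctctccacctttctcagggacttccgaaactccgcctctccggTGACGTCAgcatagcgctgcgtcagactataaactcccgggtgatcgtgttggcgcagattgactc

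The strongest rise was that of Hspb1, which encodes the small heat shock protein Hsp27. Its intensities were 17.8, 16.7 and 15.9 in NIC and 575, 391, 401 and 733 in 8R, a change of 4.00 ± 0.31 (adjusted p = 2.02e-10, limma). The NIC values are near the added 16, so this 15.97-fold difference understates the rise. Of the 12 small heat shock proteins and Bag cochaperones listed, 10 were tested, 6 rose and 1 fell, with a median of 0.55 against 0.04 for all genes. Cryab (alpha-B crystallin) rose by 1.97 ± 0.20 and Bag3, which hands misfolded clients to autophagy, by 1.72 ± 0.25. Bag3 read 107, 96.3 and 116 in NIC and 452, 299.5, 286 and 579 in 8R. Bag6 fell by 0.28 ± 0.10 (adjusted p = 0.0266, limma), a call lost without NIC replicate 2 or 3 or 8R replicate 1 or 2. Hspb6 was not called, at -0.08 ± 0.13.

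The cytosolic Hsp70, Hsp90, Hsp40 and Hsp110 machinery rose nearly as a whole. Of 23 genes tested 21 were higher, with a median of 0.69. Hsph1, shown above, went from 458, 422 and 451 to 2122, 1779.8, 1719 and 2223, a change of 2.10 ± 0.16, with no overlap between the groups. Dnaja1, an Hsp40 cochaperone, rose by 1.73 ± 0.12, Hspa2 by 1.25 ± 0.13 and Stip1, the adaptor that joins Hsp70 to Hsp90, by 1.03 ± 0.12. The abundant constitutive members moved less: Hspa8 (Hsc70) rose by 0.59 ± 0.08 and Hsp90ab1 by 0.37 ± 0.10. The ubiquitin ligase of the system, Stub1 (CHIP), read 205, 198 and 221 in NIC and 245, 234, 264 and 177 in 8R and was not called.

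TRiC, the ring-shaped chaperonin that folds actin and tubulin, and prefoldin, which delivers clients to it, were raised in step. Of 12 tested genes 11 were higher. The median of the list, relative to the NIC mean, was 0.68, 0.63, 0.48 and 0.56 in the 8R arrays and 0.08, -0.14 and 0.05 in the NIC arrays. Cct5 had 355, 320.2 and 342 in NIC and 792, 709, 622 and 672 in 8R, a change of 1.00 ± 0.10 (adjusted p = 2.31e-08). Tcp1, another ring subunit, rose by 0.89 ± 0.10, and prefoldin subunit 1 (Pfdn1) by 0.60 ± 0.14. The groups did not overlap for these 3 genes. Pfdn5 overlapped, with 8R replicate 4 at 90.2 below all NIC arrays, and was not called.

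In the mitochondrial matrix, 9 of 14 chaperone and protease genes rose. Hspd1 (Hsp60) went from 117, 95.6 and 114 to 619, 515, 446 and 639, a change of 2.18 ± 0.14 (adjusted p = 4.43e-12). Its partner Hspe1, from the same stretch of promoter, had 326, 278 and 363 in NIC and 888, 787, 731 and 1064 in 8R, a change of 1.38 ± 0.18. Hspa9 (mortalin) rose by 1.13 ± 0.10, the matrix protease Lonp1 by 0.88 ± 0.13 and the unfoldase Clpx by 0.84 ± 0.12. The nucleotide exchange factor Grpel2 was not called, at -0.13 ± 0.13.

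Among 22 genes of ER folding and degradation tested, 15 rose, with a median of 0.56. Herpud1, which helps to clear misfolded proteins from the ER, read 161, 155 and 174 in NIC and 555, 481, 389 and 480.3 in 8R. Hspa5, the lumenal Hsp70 whose promoter is shown above, went from 167, 148 and 178 to 416, 327, 359 and 482, a change of 1.18 ± 0.14. Calr (calreticulin) rose by 0.95 ± 0.12, Hsp90b1 (Grp94) by 0.91 ± 0.10 and the disulfide isomerase Pdia3 by 0.78 ± 0.12. The transcription factor Xbp1, which is controlled by splicing as well as by level, was not called, at 0.26 ± 0.11. The ubiquitin ligase Syvn1 was not called either, with 63.3, 59.2 and 46.2 in NIC and 43.1, 37.5, 48.6 and 46.5 in 8R.

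The integrated stress response list had 20 of 29 genes higher, with a median of 0.71. Atf3, an early factor of this response, was listed at 8.88, 4.29 and 16.4 in NIC, below or about the added 16, and 163, 111, 96.1 and 125 in 8R. Ddit3 (Chop) went from 46.0, 36.8 and 38.6 to 265, 186, 137 and 169.7 and Ppp1r15a (Gadd34) from 41.1, 35.9 and 44.6 to 204, 144, 124 and 181. Their changes were 1.83 ± 0.23 and 1.65 ± 0.23, with 8R replicate 1 the highest array for both. Chac1 rose by 1.47 ± 0.25, the mitochondrial folate enzyme Mthfd2 by 1.35 ± 0.14 and Cebpg, a partner of Atf4, by 1.32 ± 0.12. Trib3, a late target in other cells, had 22.3, 29.7 and 27.8 in NIC and 42.5, 28.4, 28.2 and 52.8 in 8R, which overlap, and was not called.

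The aminoacyl-tRNA synthetases, which charge tRNAs and are regulated by Atf4, were higher too. Of 19 tested, 15 rose and 1 fell, with a median of 0.67. Eprs1, the enzyme for glutamate and proline, had 111, 106 and 122 in NIC and 530.1, 365, 326 and 538 in 8R, a change of 1.79 ± 0.17 (adjusted p = 7.3e-09). Cars1 went from 60.6, 68.3 and 59.5 to 314, 212, 165 and 259.5, and Tars1 rose by 1.41 ± 0.14, Rars1 by 1.24 ± 0.10, Yars1 by 1.18 ± 0.11 and Aars1 by 1.05 ± 0.11. Wars1 was the synthetase that fell, with a change of -0.43 ± 0.12. Kars1 and Farsa were not called, at 0.30 ± 0.12 and 0.20 ± 0.10.

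Promoters were searched on both strands over 250 bases upstream of the start, for the 10370 tested genes with an entry. The C/EBP-ATF element (TGATGCAA or TTGCATCA) was in 5 of 17 synthetase promoters (29.4%), those of Aars1, Iars1, Mars1, Nars1 and Tars1. Its share was 0.521% among tested genes and 0.656% over all 27457 promoters of the table. All 5 of these synthetases were called higher. It was in 3 of 27 integrated stress response promoters (Chac1, Ppp1r15b and Fgf21, the last not called). The ER stress response element (CCAAT, any 9 bases, then CCACG) was in 8 of 17 promoters of the ER list (47.1%). Its share was 0.154% among tested genes and 0.0765% over all promoters. Calr, Canx, Dnajc3, Hsp90b1 and Hspa5 hold it and were higher, while Creld2, Derl3 and Xbp1 hold it and were not called.

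Heat shock units in a row of 3 (GAA and its inverse TTC in turn, each 2 bases from the next) were in 2 of 21 promoters of the cytosolic chaperones, those of Hspa8 and Hsph1, and in 2 of 11 mitochondrial chaperone promoters, those of Hspd1 and Hspe1. Over all promoters the share was 0.597%, among tested genes 0.405%, among genes called higher 0.606% and among genes called lower 0.796%. The 3 largest rises with an entry in each of 2 lists were also searched. Ppp1r15a had the cyclic AMP response element (TGACGTCA, in 2.81% of tested genes and 1.70% of all promoters) and Chac1 the C/EBP-ATF element. Hspb1, Bag3, Bag1 and Ddit3 had no match to these motifs within the window. Hspe1, Hsph1, Hspa5 and Tars1 were chosen for display after their matches were seen. A match is a run of letters, and binding was not measured.

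**Figure D2:**
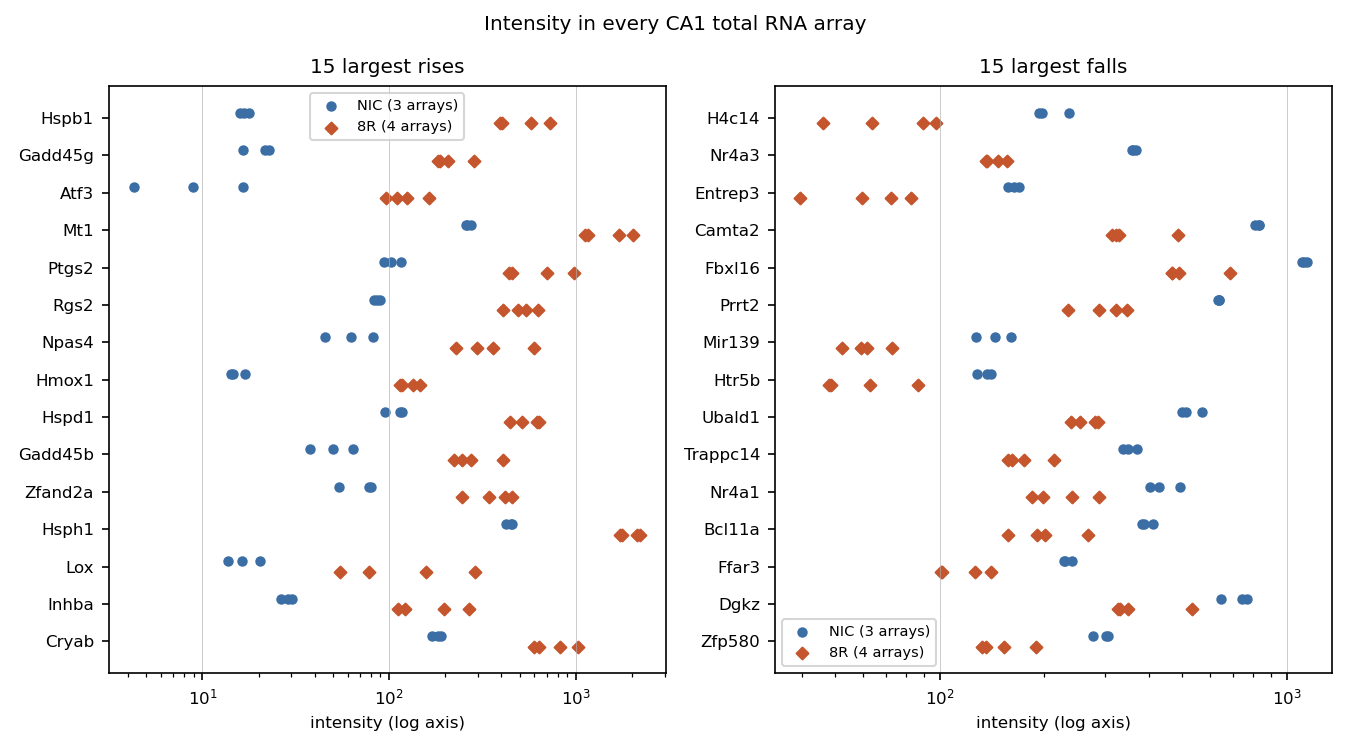
Intensity on each CA1 total RNA array (horizontal log axis) for called genes without overlap between the groups, 15 with the strongest rises on the left and 15 with the strongest falls on the right. NIC arrays are circles and 8R arrays are diamonds. Hspb1 moves from below 20 to above 390, and the Nr4a3 diamonds lie between 136 and 156, apart from the circles between 359 and 368.

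Proteasome genes were mostly higher. Of 32 proteasome subunits tested, 24 were higher, with a median of 0.45, and 11 were without NIC replicate 2. The list median was -0.16 on NIC replicate 2 and 0.09 and 0.07 on the other NIC arrays, against 0.36 to 0.55 on the 8R arrays. Psmd12, a lid subunit, went from 226, 159 and 192 to 393, 350.3, 314 and 345. The lid deubiquitinase Psmd14 rose by 0.74 ± 0.11 and the ATPase Psmc1 by 0.72 ± 0.11. Psmb4 was not called, and 8R replicate 4, at 189, lay within the NIC range.

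Of 18 ubiquitin genes and adaptors, 7 rose and 3 fell, or 1 fell without NIC replicate 3. Zfand2a (Airap), a stress-induced proteasome adaptor, was the exception in size, with 77.8, 53.8 and 80.1 in NIC and 417, 344, 245 and 458 in 8R and a change of 2.12 ± 0.26. The segregase Vcp rose by 0.52 ± 0.11. Ubqln4, which shuttles ubiquitinated proteins, read 121, 136 and 137 in NIC and 76.8, 81.3, 94.1 and 81.4 in 8R, a change of -0.57 ± 0.10. The deubiquitinases Uchl1 and Otub1 fell as well. Among 20 autophagy and lysosome genes 4 rose, the share of all genes, and 2 fell. Without NIC replicate 2 or NIC replicate 3, 2 rose, without NIC replicate 2 or 8R replicate 1 or 2, 1 fell, and under quantile normalization 2 rose and 4 fell. Atg12 rose by 1.11 ± 0.10 and Atg3 by 0.68 ± 0.14, both part of the conjugation system of the autophagosome membrane, whereas the initiating kinase Ulk1 fell by 0.50 ± 0.11 and Atg9a by 0.37 ± 0.12.

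The translation apparatus was higher at several levels. Of 51 ribosomal proteins tested 40 rose, with a median of 0.54, and 30 did without NIC replicate 2. Their median was 0.71, 0.62, 0.50 and 0.32 on 8R replicates 1 to 4, with replicate 4 the lowest. Rpl24 read 103, 82.9 and 81.7 in NIC and 219.7, 209, 189.8 and 170.2 in 8R, and Rps19 195, 171 and 173 in NIC and 418, 404, 321 and 287 in 8R. Ribosomal protein genes have many near-identical pseudogene copies, so the share of signal from each copy is uncertain. Of 38 initiation and elongation factors 25 rose. Eif2s2 and Eif2s1, subunits of eIF2, rose by 1.05 ± 0.13 and 0.84 ± 0.13. Mitochondrial ribosomal proteins rose for 20 of 47, and for 12 without NIC replicate 2, led by Mrpl45 at 0.92 ± 0.12.

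Ribosome assembly factors of the nucleolus rose for 25 of 42 and fell for 1 (median 0.44). Nop58, a core protein of the particles that methylate ribosomal RNA, had 101, 82.7 and 93.9 in NIC and 329, 249.96, 201 and 301 in 8R. Utp3 went from 71.1, 56.4 and 65.5 to 229.8, 167, 155 and 212, and the helicase Ddx21 rose by 0.98 ± 0.10. In all 3 genes the lowest 8R array was above the highest NIC array. Gtpbp4 rose by 0.80 ± 0.16, and Emg1 was not called, with 8R replicate 4 (75.1) within the NIC range.

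Splicing factors of the SR and hnRNP families rose for 26 of 30, with a median of 0.63. The list median stood at 0.79, 0.67, 0.57 and 0.55 on the 8R arrays and between -0.13 and 0.06 on the NIC arrays. Srsf3 went from 68.0, 55.5 and 61.7 to 198, 178, 150.2 and 142, a change of 1.23 ± 0.13 (adjusted p = 4.99e-08). Clk1 and Clk4, kinases that phosphorylate SR proteins, rose by 1.15 ± 0.17 and 1.08 ± 0.14. Rbm3, an RNA-binding protein known for induction by cold, had 136, 118 and 117 in NIC and 329, 238, 319 and 256 in 8R. The neuronal splicing regulator Ptbp2 was not called, at 0.27 ± 0.13. Among 27 proteins that bind AU-rich elements or form stress granules 9 rose, among them Fxr1 (0.89 ± 0.12), Ybx1 (0.78 ± 0.09), Ddx3x (0.76 ± 0.11) and G3bp1 (0.61 ± 0.13), the last a scaffold of stress granules.

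**Figure D3:**
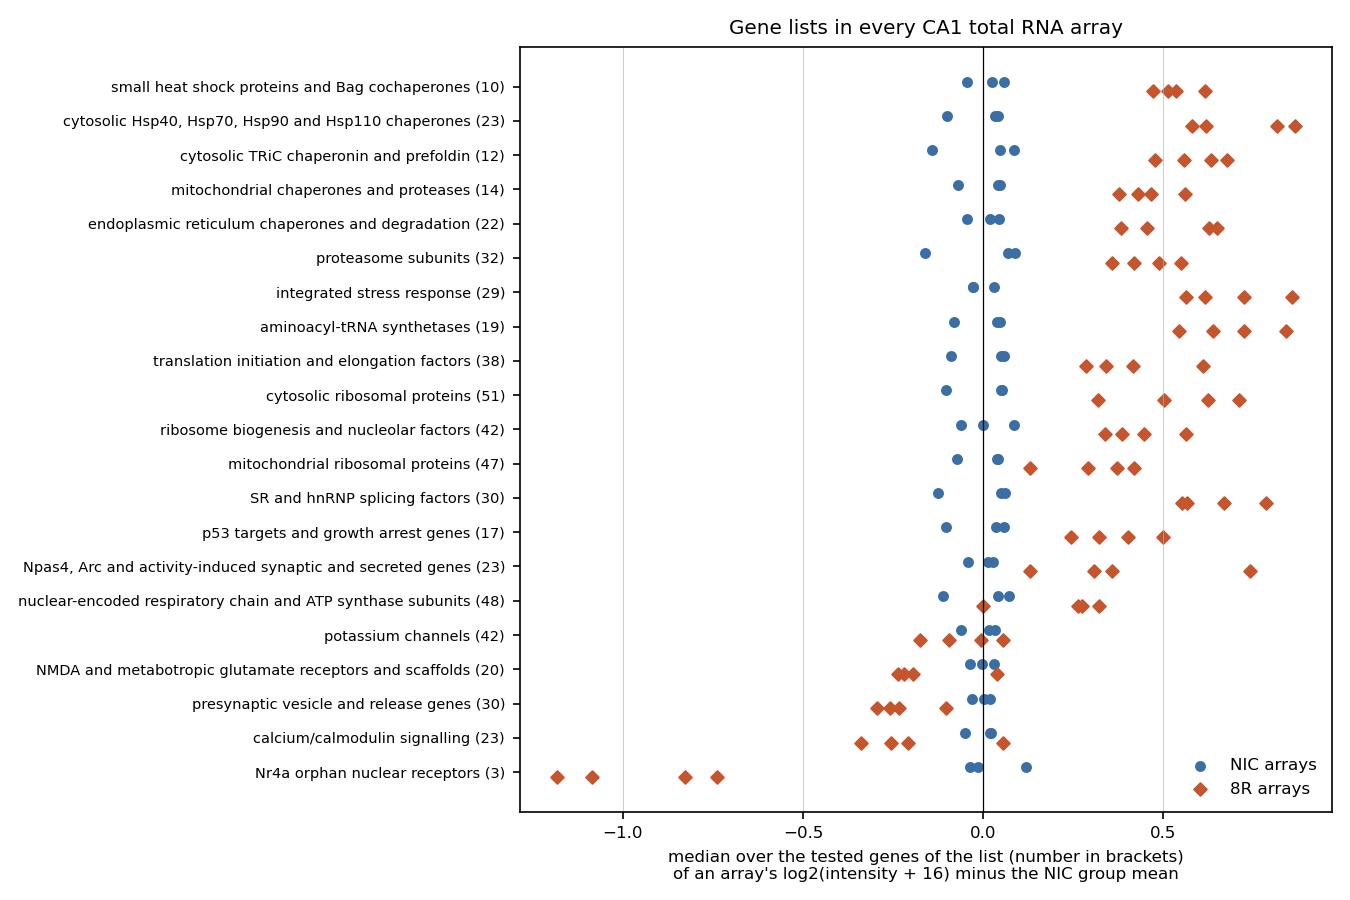
Median over the tested genes of each list of an array's log2(intensity + 16) minus the NIC group mean, for the 3 NIC arrays (circles) and the 4 8R arrays (diamonds). For TRiC and prefoldin the diamonds lie between 0.48 and 0.68, and for the presynaptic list between -0.30 and -0.10.

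Activity-dependent transcription factors went in opposite directions. All 3 orphan nuclear receptors of the Nr4a family, which respond to calcium and cyclic AMP, fell. Nr4a3 read 359, 361 and 368 in NIC and 156, 136, 147 and 137 in 8R, a change of -1.25 ± 0.09 (adjusted p = 2.54e-11). Nr4a1 went from 404, 429 and 491 to 199, 185, 241 and 287, and Nr4a2 fell by 0.80 ± 0.12. Egr1 and Egr3, zinc finger factors induced by synaptic activity, fell by 0.84 ± 0.17 and 0.86 ± 0.13. Of the 16 immediate early factors of that list 2 fell and 2 rose, the rises being a smaller share than the 20.1% of all genes. Under quantile normalization 5 fell, and without the pool 4 arrays 5 fell and 3 rose. Jun, which partners Fos and Atf3, went from 195, 195 and 179 to 552, 439, 386 and 604, and Ier5 rose by 1.34 ± 0.11. Fos itself was not called, with 38.8, 39.0 and 65.1 in NIC and 75.8, 56.8, 53 and 73.9 in 8R.

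Npas4, a factor that neurons switch on with calcium influx, behaved otherwise, with 62.7, 45.5 and 81.9 in NIC and 296, 228, 361 and 598 in 8R. It belongs to a list of 23 activity-induced synaptic and secreted genes of which 11 rose. Inhba, the activin subunit, had 28.9, 30.2 and 26.5 in NIC and 198, 111, 122 and 269.8 in 8R, a change of 2.02 ± 0.20. Nptx2, which clusters AMPA receptors, rose by 1.44 ± 0.20 and Arc, which internalises them, by 1.03 ± 0.24. Bdnf was not called, at 0.28 ± 0.14. Rgs2, a brake on signalling by Gq-coupled receptors, had the smallest adjusted p of these genes. It read 89.3, 83.3 and 86.1 in NIC and 541, 628, 406 and 489 in 8R, a change of 2.36 ± 0.13 (adjusted p = 9.58e-14).

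Feedback inhibitors of MAP kinase signalling were higher for 7 of 13 and lower for 2, and under quantile normalization for 4 and 3. Without NIC replicate 2 or 8R replicate 1, 4 were higher, and without NIC replicate 1 or 2, 1 was lower. Dusp2 rose by 1.23 ± 0.18, Dusp6 by 0.82 ± 0.14 and Spred1 by 0.78 ± 0.10, whereas Dusp8 fell by 0.47 ± 0.10. Of 25 Kruppel-like and other stress-linked factors 8 rose and 1 fell, or 3 under quantile normalization. Sox11, a factor of immature and injured neurons, went from 25.2, 19.5 and 27.7 to 133, 79.7, 62.1 and 112, a change of 1.45 ± 0.19. Hes5, a Notch target, was the gene that fell, from 41.8, 38.5 and 38.4 to 16.4, 12.6, 27.2 and 27.8.

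Growth arrest genes rose for 10 of 17. The 3 Gadd45 genes, which bind stress kinases and DNA repair factors, moved together. Gadd45g went from 21.7, 16.6 and 22.7 to 285, 206, 188 and 182, Gadd45b from 50.2, 37.7 and 64.4 to 407, 246, 222 and 276 and Gadd45a from 28.7, 17.1 and 23.9 to 145, 98.5, 88.3 and 91.1. No 8R array of any of the 3 overlapped the NIC arrays. Mdm2, the ligase that restrains p53, rose by 1.17 ± 0.11 and the cell cycle inhibitor Cdkn1a (p21) by 1.10 ± 0.20. In the Bcl-2 and caspase list 4 of 20 rose and 1 fell, with a median of 0.02, and the share that rose is close to that of all genes. The inhibitor of apoptosis Birc2 rose by 0.70 ± 0.11, Cycs (cytochrome c) by 0.63 ± 0.11, the pore-forming Bak1 by 0.59 ± 0.16 and its activator Bid by 0.33 ± 0.10. Casp8 fell by 0.40 ± 0.13, a call lost without NIC replicate 2 or 3 or 8R replicate 2, and 3 genes fell without the pool 4 arrays.

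Redox genes rose in part. Of 22 Nrf2 targets 10 were higher. Hmox1 (heme oxygenase 1) was listed at 14.6, 17.0 and 14.3 in NIC and 134, 118, 115 and 146 in 8R, a change of 2.20 ± 0.16. Srxn1, which repairs oxidised peroxiredoxins, rose by 1.40 ± 0.18 and Txnrd1 by 0.78 ± 0.10, and Nfe2l2 (Nrf2) itself by 0.51 ± 0.10. Of 4 metallothionein and zinc genes tested 3 rose. Mt1 went from 258, 260.1 and 276 to 1711, 1161, 1115 and 2035 and Mt2A from 1768, 1631 and 1631 to 3323, 2893, 3308 and 4326, though these are near-identical copies whose signals may mix. The brain-enriched Mt3 was not called, at 0.03 ± 0.15. Of 22 superoxide dismutases, peroxidases and selenoprotein genes 7 rose and 1 fell. Under quantile normalization 5 fell, without the pool 4 arrays 13 rose and 4 fell, and the fall was not called without NIC replicate 1. Sephs2, which makes selenophosphate, rose by 0.77 ± 0.12 and Sod1 by 0.43 ± 0.08.

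Ptgs2 (COX-2) had 116, 93.9 and 102 in NIC and 700.2, 458, 439.9 and 983 in 8R, a change of 2.39 ± 0.30, and Pla2g4a, which releases arachidonic acid, 24.5, 25.1 and 26.7 in NIC and 62.1, 50.8, 52.3 and 78.3 in 8R. Of the 11 prostaglandin genes tested 3 rose and 1, the receptor Ptger1, fell, the fall not being called without any of 5 of the 7 arrays. Their median was 0.05, against 0.04 for all genes. Of 18 cytokine and NF-kB genes 3 rose, a smaller share than among all genes: Stat3 by 1.27 ± 0.15, Nfkb1 by 0.61 ± 0.11 and the chemokine Ccl2 by 0.30 ± 0.11, the last at an adjusted p of 0.0479. Under quantile normalization 2 rose and 3 fell, and without the pool 4 arrays 4 rose and 2 fell. Of the 15 hypoxia genes 9 rose, and 5 did under quantile normalization. P4ha1, a collagen hydroxylase, went from 37.3, 38.8 and 38.2 to 147, 112, 121 and 197, and Vegfa rose by 0.93 ± 0.12. Of 22 growth factors 7 rose (4 without NIC replicate 3) and 1 (Gdnf) fell. Without the pool 4 arrays 6 rose and 4 fell, and the fall of Gdnf was lost without any array other than 8R replicate 4. Fgf2 read 126, 144 and 130.0 in NIC and 243, 255, 275 and 262 in 8R. Lox, a collagen crosslinking enzyme in no list, had 16.4, 20.3 and 13.7 in NIC and 158, 78.0, 54.6 and 290.2 in 8R, a rise of 2.07 ± 0.37 with a wide spread among the 8R arrays.

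Clock and hormone genes also changed. Dbp, an output of the circadian clock, went from 1239, 1182 and 1205 to 654, 657, 803 and 727, and the clock repressor Nr1d1 (Rev-erb alpha) from 663, 619 and 654 to 311, 327, 414 and 519. Among 17 clock genes 6 rose, with Cry1 at 0.69 ± 0.13 and Rora at 0.65 ± 0.10, and 3 fell. The time of day of tissue collection is not given in the sources used here. Of 17 glucocorticoid targets and receptors 8 rose and 1 fell, and 5 rose under quantile normalization. Fkbp5, a cochaperone of the glucocorticoid receptor, read 106, 104 and 95.0 in NIC and 253, 190.2, 266 and 154 in 8R. Nr3c2, the mineralocorticoid receptor, fell from 419, 411 and 443 to 248, 244, 304 and 264, a change of -0.65 ± 0.12.

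Energy metabolism changed less. Of 48 nuclear-encoded respiratory chain and ATP synthase genes 17 rose and 1 fell, but 4 rose without NIC replicate 2 and 33 without the arrays of pool 4. It was 9 without NIC replicate 1 and 6 and 8 without 8R replicates 1 and 2. Under quantile normalization 10 rose and 3 fell. Ndufb9, a complex I subunit, had 798, 717 and 833 in NIC and 1240.0, 1066, 989 and 1001 in 8R, a change of 0.45 ± 0.09. The list median was 0.32, 0.27, 0.26 and 0.00 on 8R replicates 1 to 4, so replicate 4 was at the NIC level. Of 23 tricarboxylic acid cycle genes 4 rose, led by Dld at 0.79 ± 0.13, which is under the share of all genes. Without 8R replicate 4, 7 rose, without the pool 4 arrays 11 rose, and under quantile normalization 4 rose and 3 fell. Of 14 glycolysis genes 4 rose, or 1 without NIC replicate 2 and 2 without NIC replicate 3, and Ldha fell by 0.56 ± 0.11. Only 3 transcripts of the mitochondrial genome were tested, and COX1 and COX2 were not called, at -0.15 ± 0.15 and -0.09 ± 0.17. Of 18 cholesterol genes 6 rose, Idi1 by 0.71 ± 0.18 and Msmo1 by 0.65 ± 0.12, and Srebf2 fell by 0.32 ± 0.12, a call lost without NIC replicate 2 or 3 or 8R replicate 1 or 2.

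Presynaptic genes were lower in part. Of 30 presynaptic genes 12 fell, against 6.15% of all genes, and 1 rose, with a median of -0.22. Prrt2, which binds the vesicle fusion machinery, had 633, 636 and 635 in NIC and 287, 234, 322 and 346 in 8R, a change of -1.07 ± 0.13. Syn1 (synapsin) went from 1409, 1359 and 1419.8 to 836, 733, 935 and 1077 and Vamp2 (synaptobrevin) from 1224, 1143 and 1189.9 to 699, 624, 758 and 958. The active zone scaffold Bsn fell by 0.70 ± 0.15, and Syt4 was the gene that rose, by 0.79 ± 0.12. In 8R replicate 3 the list median was -0.10, against -0.26, -0.23 and -0.30 in the others.

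Calcium and calmodulin genes fell for 5 of 23, with a median of -0.27, for 10 under quantile normalization and for 8 without 8R replicate 3. Camta2, a calmodulin-binding transcription factor, read 831, 832 and 808 in NIC and 322, 314, 485 and 327 in 8R, with replicate 3 the highest of the 8R arrays. Camk2b, a subunit of the kinase of synaptic plasticity, went from 1628, 1645 and 1585 to 1124, 1039.5, 1583 and 1116. Rcan2, a calcineurin inhibitor, rose by 0.78 ± 0.09. Of 20 NMDA and metabotropic receptor and scaffold genes 4 fell and 1 rose, and 10 fell under quantile normalization, 7 without the pool 4 arrays and 8 without 8R replicate 3. The scaffolds Shank1 and Dlgap4 fell by 0.83 ± 0.16 and 0.70 ± 0.11, Dlg4 (PSD-95) by 0.26 ± 0.10, and the receptor subunit Grin2b was not called, at -0.41 ± 0.17.

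In the AMPA and kainate receptor list 3 of 14 fell, and 2 rose. Without NIC replicate 2, 1 fell and 1 rose, without NIC replicate 3 or 8R replicate 1 or 2, 1 fell, and without the pool 4 arrays 6 fell. Cnih2, which traffics AMPA receptors, had 1245, 1256 and 1357 in NIC and 645, 643, 814 and 826 in 8R, a change of -0.81 ± 0.12. Grip1, an AMPA receptor scaffold, rose by 0.58 ± 0.14 and Gria4 by 0.41 ± 0.11. Of 15 GABA receptor and scaffold genes 2 rose, among them Gabra4 (0.54 ± 0.13), and Nlgn2, the adhesion protein of inhibitory synapses, fell by 0.62 ± 0.16. The rises are a smaller share than among all genes, with 1 rise left without any array other than 8R replicate 1. Under quantile normalization 1 rose and 4 fell, and without the pool 4 arrays 3 rose and 3 fell. Potassium channels were lower for 4 of 42, a share near the 6.15% of all genes. They were higher for 1, a smaller share than the 20.1% of all genes. Under quantile normalization 11 were lower, without 8R replicate 2 there were 2, and without 8R replicate 3 there were 7. Kcnh3 fell by 0.61 ± 0.18 with 8R replicate 3 (185) close to the NIC arrays, which lay between 191 and 194. Sodium and calcium channel genes were lower for 3 of 32, also a share near that of all genes. They were higher for 3, again a smaller share than among all genes. The lower calls numbered 13 under quantile normalization and 7 without the pool 4 arrays or without 8R replicate 3. Cacna2d1, the gabapentin-binding subunit, rose by 0.81 ± 0.11 and Scn2b fell by 0.65 ± 0.14.

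Several of the largest falls were outside these lists. H4c14, a histone H4 gene with near-identical copies whose signals may mix, went from 197, 193 and 236 to 97.4, 89.2, 63.8 and 46.1. Of 9 histone genes tested 2 fell and 2 rose, the latter H3f3b (0.71 ± 0.11) and H2az1 (0.67 ± 0.18), which are made outside S phase. Without NIC replicate 2, 1 rose, without NIC replicate 1 or 2 or 8R replicate 1 or 4, 1 fell, and under quantile normalization 4 fell. Fbxl16 read 1140.2, 1122 and 1102 in NIC and 466, 489, 684 and 465 in 8R. Bcl11a, a transcription factor of cortical and hippocampal neurons, went from 410.4, 382 and 387 to 201, 191, 267 and 158, and Dgkz, a diacylglycerol kinase, from 645, 768 and 742 to 331, 326, 534 and 348. In Fbxl16 and Dgkz the highest 8R array was replicate 3.

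Among genes of miRNAs 81 were tested, 5 were higher and 12 lower, with a median of -0.06. Rises were a smaller share than the 20.1% of all genes, and falls a larger share than the 6.15%. The counts of this group were not repeated under the other settings. The 3 with the largest changes are shown by their mature sequences from RefSeq, with the seed (bases 2 to 8) in capitals. These 5 seeds differ from each other:
rno-miR-139-5p: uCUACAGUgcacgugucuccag
rno-miR-139-3p: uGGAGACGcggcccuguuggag
rno-miR-22-3p: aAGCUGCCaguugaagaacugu
rno-miR-22-5p: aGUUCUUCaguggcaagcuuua
rno-miR-138-5p: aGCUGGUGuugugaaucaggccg

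The probe set of Mir139 had 127, 144 and 160.4 in NIC and 59.2, 61.7, 52.4 and 72.9 in 8R, a change of -1.05 ± 0.15 (adjusted p = 7.44e-06). Mir138-2, the gene of a miRNA abundant in neurons, went from 179.9, 159 and 162 to 94.2, 88.8, 99.97 and 121, a change of -0.65 ± 0.12. Mir22 was the largest rise, from 56.6, 60.0 and 54.1 to 117, 100, 86.1 and 111 and 0.70 ± 0.12. None of the 3 overlapped between groups, which also held for 34.6% of all genes, and they were picked for the size of their change. The probe sets carry the names of the hairpin genes, and whether the primary transcript, the hairpin or the mature form gave the signal is not given in the sources used here.

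Markers of neuronal types were mixed. Of 10 CA1 pyramidal markers tested 3 fell (1 without NIC replicate 3, 5 under quantile normalization or without 8R replicate 3) and 1 rose, a call lost without NIC replicate 2 or 8R replicate 4, with the sum over the list at 1651.8 to 1797.5 in NIC and 1277.2 to 2027.1 in 8R. Htr5b, a serotonin receptor, went from 141, 137 and 128 to 62.8, 48.0, 86.8 and 48.6, while Wfs1 was not called, with 530.4, 679 and 591 in NIC and 455, 512, 853 and 516 in 8R. In both the highest 8R array was replicate 3. Of 17 pan-neuronal markers 4 fell (2 without NIC replicate 3), among them Rbfox3 (NeuN) by 0.52 ± 0.11, and 2 rose (1 without NIC replicate 2 or 8R replicate 4, 4 without 8R replicate 2), and the summed level ranged from 14566 to 15404 in NIC and 13309 to 15521 in 8R. For the CA1 pyramidal and pan-neuronal sums 8R replicate 3, at 2027.1 and 15521, lay above all NIC arrays. Every other 8R array lay below them. Of 14 CA3 markers 2 rose and 2 fell, of 14 interneuron markers 1 rose, and of 9 dentate markers 2 rose, with Calb1, a calcium buffer also made by CA1 neurons, at 1.10 ± 0.19. These shares are near those of all genes for the dentate markers and lower in rises for the others. With 1 array left out, 0 to 2 CA3 markers rose and 1 to 2 fell, 0 to 1 interneuron markers rose and 0 to 1 fell, and 1 to 3 dentate markers rose and 0 to 1 fell. Under quantile normalization the CA3 and interneuron lists had no rises called, with 3 and 2 falls, and the dentate list had 1 rise and 2 falls.

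Astrocyte and microglial markers were higher. The summed astrocyte markers were 5962 to 6293 in NIC and 7205 to 8194 in 8R, and 6 of 13 rose, or 3 without NIC replicate 2, among them S100b by 0.48 ± 0.12. Reactive astrocyte genes had a sum of 1430 to 1453 in NIC and 2480 to 3101 in 8R, and 8 of 18 rose. The median change of the list was 0.12, with 11 of 18 positive, against 0.04 for all genes. Vim (vimentin) went from 122, 124 and 113 to 341, 319, 275 and 313 and Gfap from 438, 438 and 434 to 918, 869.5, 886 and 799.7. The list shares Hspb1 with the heat shock list, and bright genes such as Gfap weigh most in the sum. Microglial markers summed to 710 to 747 in NIC and 838 to 979 in 8R, with 4 of 12 higher, led by C1qb at 0.63 ± 0.14. For these 3 lists the groups did not overlap in the sum. Their part in the changes of the other lists was not tested.

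Other glial and vascular lists overlapped between groups in their sums. Myelin markers summed to 3886 to 4678 in NIC and 3661 to 4273 in 8R, with 3 of 15 lower (1 without NIC replicate 1), led by Opalin at -0.59 ± 0.12, and 2 higher, neither of them called without NIC replicate 2 and 1 called without NIC replicate 3 or 8R replicate 1. Without the pool 4 arrays 6 were lower, and under quantile normalization 7. Oligodendrocyte precursor markers had 1 of 10 higher and 1 lower, neither called without NIC replicate 1 or 2. Endothelial and mural markers summed to 536 to 583 in NIC and 543 to 605 in 8R, with 1 of 10 higher, a call lost without NIC replicate 1 or 8R replicate 3, and choroid plexus and meningeal markers to 689 to 732 and 627 to 887. Blood cell markers summed to 332 to 370 in NIC and 288 to 342 in 8R, and 2 of 5 tested, Cd3d and Mpo, fell, or 1 without NIC replicate 1 or 3 or 8R replicate 1. Markers with a mean intensity under 16 were 2 of 11 for blood cells, 2 of 16 for endothelium, 2 of 16 for choroid plexus and 3 of 28 for reactive astrocytes.

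**Figure D4:**
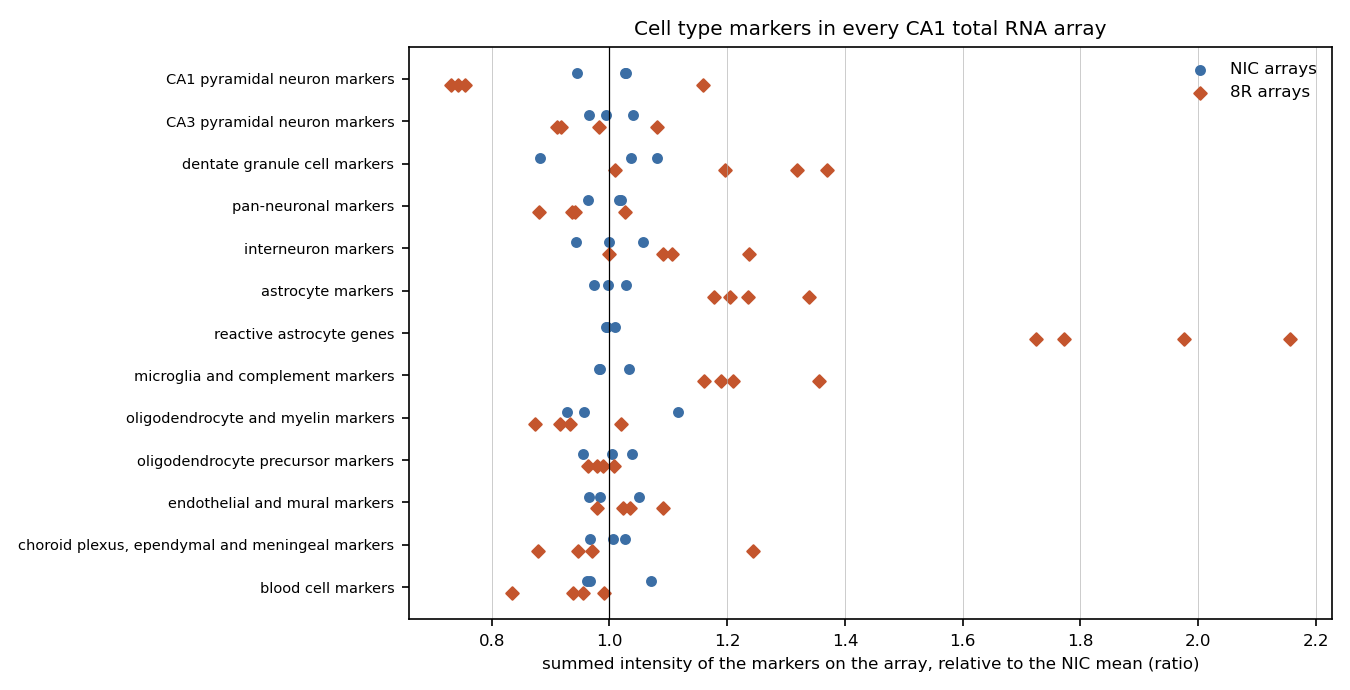
Summed intensity of the markers of each cell type on every CA1 total RNA array, divided by the NIC mean of that list. The 8R arrays (diamonds) lie above the NIC arrays (circles) for the astrocyte, reactive astrocyte and microglia lists. For the CA1 pyramidal and pan-neuronal lists 8R replicate 3 lies above all NIC arrays, and the other 8R arrays lie below them.

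The change in CA1 was set against that in CA3 total RNA, which has its own 3 NIC and 4 8R arrays. The difference of the 2 changes was called for 3 genes, all with the larger rise in CA1 (0.0236% of those tested), and at an unadjusted p under 0.05 for 663. Without the pool 4 arrays 10 differences were larger and 4 smaller in CA1, and leaving out 1 array gave 1 to 6 larger and 0 to 1 smaller. Quantile normalization gave 1 larger and 1 smaller. Same-numbered 8R arrays of the 2 fields correlated in their deviations at 0.268, 0.124, 0.349 and 0.540, and the NIC arrays at 0.00324, 0.0341 and 0.0990. The labels do not say that they share rats, and with the pool number as a random block 13 differences were larger and 3 smaller. Rgs2 rose by 2.36 in CA1 and 0.86 in CA3, a difference of 1.5 ± 0.18 (adjusted p = 3.14e-05). Its CA3 intensities were 126, 108 and 119 in NIC and 276, 226, 204 and 206 in 8R. Hspd1 rose by 2.18 and 1.14 in CA1 and CA3, a difference of 1.04 ± 0.20 (adjusted p = 0.0424). Pnrc2, a cofactor of mRNA decapping, was 130.0, 97.3 and 124 in NIC CA1 and 395, 386, 348 and 412 in 8R CA1, and changed by 1.60 and 0.75 in the 2 fields, a difference of 0.84 ± 0.15 (adjusted p = 0.0382).

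Medians of the chaperone, proteasome, splicing and synthetase lists were smaller in CA3 and of the same sign, a difference not tested for lists. The proteasome median was 0.45 in CA1 and 0.32 in CA3, that of TRiC 0.58 and 0.44, that of the splicing factors 0.63 and 0.51, and that of the synthetases 0.67 and 0.58. The presynaptic median was -0.22 in CA1 and 0.07 in CA3. Hspb1 changed by 4.00 in CA1 and 4.00 in CA3. Lox had 17.5, 13.1, 8.43 and 15.7 in 8R CA3 and did not pass the test of the difference (adjusted p = 0.0957).

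**Figure D5:**
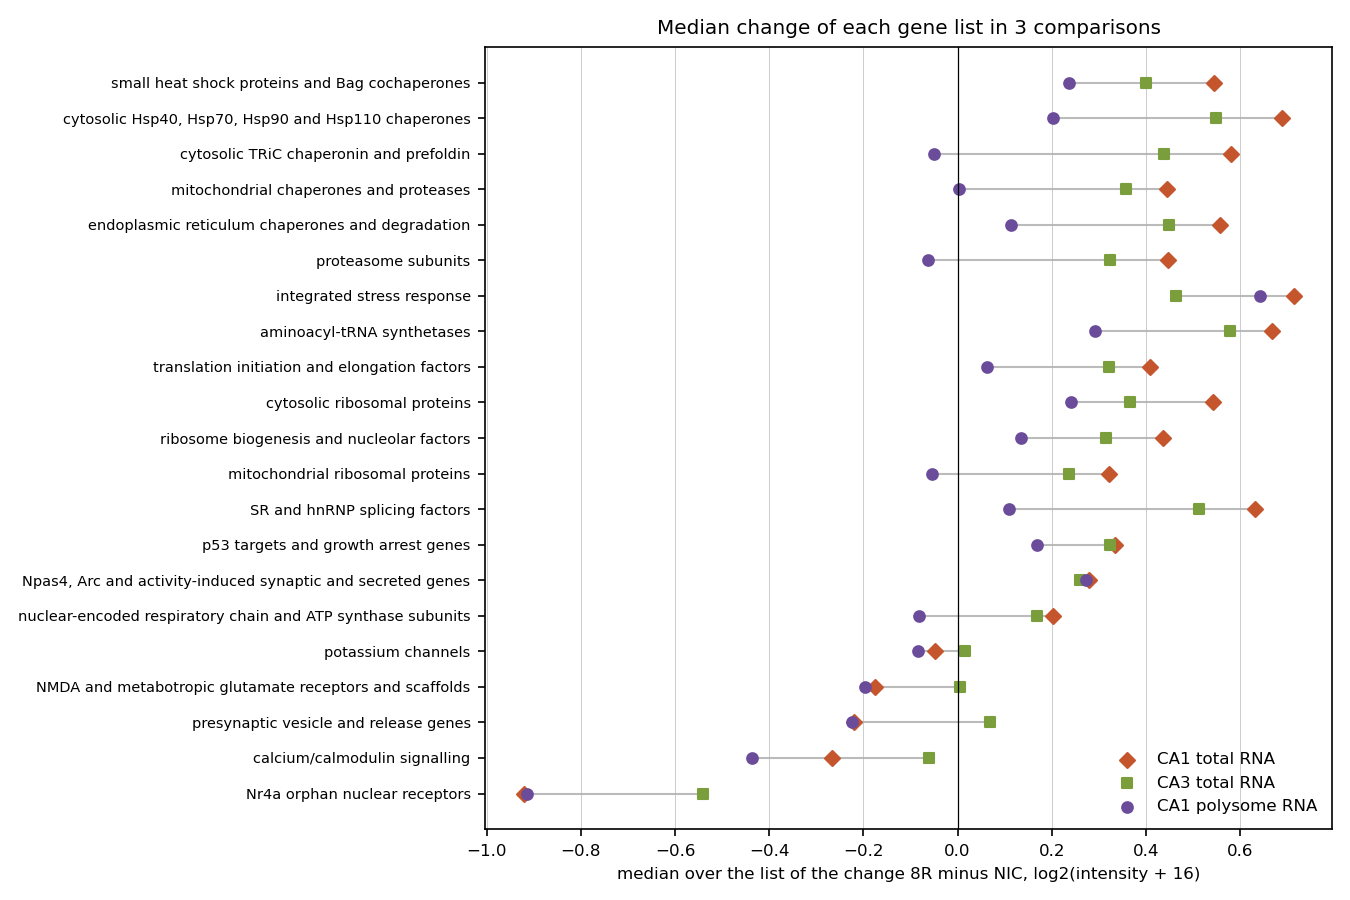
Median change from NIC to 8R of each gene list in CA1 total RNA (diamonds), CA3 total RNA (squares) and CA1 polysome RNA (circles). The splicing factor list stands at 0.63, 0.51 and 0.11, and the integrated stress response list at 0.71, 0.46 and 0.64.

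Total RNA was further set against polysome RNA of CA1, by testing the change in polysome RNA minus that in total RNA. The polysome change was the lower for 434 genes (3.41%) and the higher for 52 (0.409%), together 486 (3.82%). Both fractions came from the same supernatant, and with the pool as a random block these counts were 1463 and 329. Without NIC total RNA replicate 2 the polysome change was the lower for 27 genes, without 8R total RNA replicate 1 for 134, without 8R polysome replicate 3 for 91, and without NIC polysome replicate 1, 2 or 3 for 136, 289 and 189. The count of genes with the higher polysome change fell as low as 4 when an array was left out.

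Hspd1 and Ociad2 rose less on polysomes than in total RNA. Ociad2 changed by 1.97 in total and 0.81 in polysome RNA, a difference of -1.15 ± 0.18 (adjusted p = 0.00389). For Hspd1 the polysome intensities were 362, 264 and 284 in NIC and 603, 506 and 667 in 8R, a change of 0.93 against 2.18 in total RNA (adjusted p of the difference = 0.00389). Cebpg rose by 1.32 in total RNA and had 0.23 on polysomes (adjusted p of the difference = 0.00389). Rgs2 differed too, at 1.32 against 2.36 (adjusted p = 0.00667). In the splicing factor list the polysome change was the lower for 11 of 30, in TRiC and prefoldin for 7 of 12, in the cytosolic chaperones for 8 of 23, in the proteasome for 7 of 32, and in the integrated stress response for 1 of 29. Srsf3 had 1.23 in total and 0.38 in polysome RNA (adjusted p = 0.0156), Tcp1 0.89 and 0.12 (adjusted p = 0.00896), and Calr 0.95 and 0.13 (adjusted p = 0.0107).

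Some rises differed little between the fractions, though a difference that was not called does not show that they were equal. Hspb1 changed by 4.00 in total and 4.06 in polysome RNA, a difference of 0.06 ± 0.46. Ppp1r15a changed by 1.65 and 1.67, a difference of 0.02 ± 0.33, and Zfand2a by 2.12 and 2.10, a difference of -0.02 ± 0.38. Cnih2 and Rpph1 were reverse cases. Cnih2 fell by 0.81 ± 0.12 in total RNA and changed by 0.13 on polysomes (adjusted p of the difference = 0.00896). Rpph1, the RNA part of RNase P, is not translated. In total RNA it read 5260, 5016 and 5306 in NIC and 4079.5, 4171.5, 3767 and 4216.5 in 8R. In the polysome pellet it read 220, 155 and 304 in NIC and 769, 324 and 680 in 8R. The cause of this rise in the pellet was not tested.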

How the data were processed

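RNA from pools of dissected hippocampus was labelled (1 ug each) and hybridised to 27 Affymetrix Rat Gene 2.0 arrays. Total and polysome RNA of a pool were on separate arrays, and the main fit treated all arrays as independent, without a block. The authors deposited 1 intensity per probe set and array on a linear scale, up to 9547.58. Per the submitters' processing notes the tools were PLIER and Affymetrix Expression Console (versions unstated). How background was corrected, how arrays were scaled to each other and the genome build were not given in the sources used here. Precision is limited by array number, 3 NIC and 4 8R. The p-values rest on 1 spread per gene, taken between arrays within groups over all 27 arrays. That spread includes CA3 and polysome arrays and is not that of the CA1 total RNA pools alone.

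Of 36685 probe sets, 18511 carry 1 gene symbol in the platform annotation, 575 several and 17599 none. The brightest probe set stood for each of 18166 genes (291 have several), and 18394 of the 18511 symbols matched a current gene record. Genes under the 30th percentile of the mean (log2 of 5.39) were left out, which left 12716. Values were taken as log2(intensity + 16) and limma 3.58.1 (R 4.3.3) was run once over the 27 arrays, with 8 group means and variances moderated along intensity (residual degrees of freedom 19, prior 10.1). P-values were two-sided, adjusted by the Benjamini-Hochberg method over all genes of a comparison, and called at an adjusted p under 0.05. The steps were also run on simulated arrays, drawn independently of each other and without correlation within pools. That run therefore cannot show how such correlation affects the calls. Alternatives were quantile normalization, median centring, other pseudocounts and filters, array weights, blocks and leaving out arrays.

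There were 58 gene lists, 13 of them of cell types. The members and lists were chosen with earlier results of these data known. Genes were named by rule: the 15 largest rises and falls among called genes whose groups do not overlap, the 10 largest each way with a mean intensity of at least 200, in each list up to 6 called and 2 not called, and the 6 largest each way in the tests against CA3 and polysome RNA. Some genes picked by this rule are not named above. Members outside this rule (Hspa8, Hsp90ab1, Wars1, Bag6, Uchl1, Otub1, the label check Wfs1, Mir22, Mir138-2 and genes named only for a promoter match) were named after their values were seen. Promoters, mature miRNA sequences and motif matches are from RefSeq tables of GRCr8, and Cryab and Atf3 had no entry. Total and polysome RNA of a pool come from the same supernatant by the labels' protocols. Their deviations from the group means correlated at 0.328, 0.412 and 0.663 in 8R pools and 0.0873, 0.223 and 0.0394 in NIC pools, and the random pool block used a consensus correlation of 0.268.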

Additional observations from a re-analysis of the deposited data

Results flagged for a closer look

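Among the 31 genes examined, 3 of the largest falls had an 8R array far from the other 3 arrays. The gap of the highest array divided by the range of the group was 0.905 for Camta2, 0.874 for Fbxl16 and 0.865 for Dgkz, above the 95% critical value of Dixon's test for 4 samples, which chance passes in about 1 of 20 groups. Replicate 3 was the high array in all 3, and all 8R arrays were still below all NIC arrays.

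The change after ischemia differed between CA1 and CA3 for 3 genes in limma's test of the difference. It was larger in CA1 by 1.5 log2 for Rgs2, 1.04 for Hspd1 and 0.845 for Pnrc2. The count was 13 larger and 3 smaller with the pool number as a random block, and 10 and 4 without the pool 4 arrays. It was 1 larger and 1 smaller under quantile normalization. When 1 array was left out it ranged from 1 to 6 larger. The CA1 arrays whose removal left 1 were NIC replicates 2 and 3 and 8R replicates 1, 2 and 4.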

How the results depend on the processing

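The count of genes called higher (2561) stayed within 1.5 times of its value under every setting other than leaving out an array, where it ranged from 1704 to 2553. The count called lower (782) was 1837 under quantile normalization, 1435 with array weights, 1289 with a fixed replicate block, 1391 without the 8R arrays of pool 4 and 1352 in a fit of the 7 arrays alone without 8R replicate 4, a setting chosen after seeing the data, and from 501 (without NIC replicate 1) to 922 without 1 array. Genes with a larger change in CA1 than in CA3 (3) numbered 1 under quantile normalization, 15 with array weights, 9 with a fixed and 13 with a random replicate block, 10 without pool 4 and 1 to 6 without 1 array, and those with a smaller change (0) numbered 1, 7, 2, 3 and 4 under the same settings in this order and 0 to 1 without 1 array. Genes with a higher polysome than total change (52) numbered 200, 247, 545, 329 and 156 under those settings and 4 to 124 without 1 array. Those with a lower polysome change (434) numbered 1300 with array weights, 2126 with the fixed and 1463 with the random block, 936 without pool 4 and 27 to 855 without 1 array. The fixed block used the replicate number, and the random block used the pool number. The 2 differ for 8R CA1 polysome replicates 2 and 3, which are pools 3 and 4. The fixed block also joined NIC with 8R arrays of the same number, so it does not follow the pools. The cause of these shifts was not tested. Same-numbered NIC and 8R arrays of CA1 total RNA correlated in their deviations at 0.148, 0.106 and 0.052. NIC total and polysome arrays of 1 pool correlated at 0.0873, 0.223 and 0.0394. Values this low therefore cannot show whether the numbers pair arrays. Of the 290 named genes called, quantile normalization lost the call of 23, leaving out NIC replicate 2 that of 48 and the fixed block that of 1, and 0 changed sign in any setting. Array number and dim probe sets near the added 16 limit what can be called.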
